A study of Mus musculus with 36 samples.

Results

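RNA of sorted P-bodies was compared with RNA of the cytoplasm they were sorted from in naive mouse embryonic stem (ES) cells. The comparison rests on 4 of the 36 samples of the study, 2 libraries of P-bodies and 2 libraries of cytoplasm. A gene entered it when its reads summed to at least 10 over these 4 libraries, which held for 15630 of the 25239 genes listed. The study set P-body contents of several cell types beside each other, to ask which RNAs are held in P-bodies as cells change their fate.

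All 4 libraries came from v6.5 ES cells derived from C57BL/6 × 129S4Sv/Jae F1 embryos. By the study's methods the cells grew in N2B27 medium with LIF and the inhibitors PD0325901 and CHIR99021, which hold them in the naive state, the state of pluripotency closest to the early embryo. P-bodies were made visible with a GFP-LSM14A fusion carried on a lentiviral vector behind the EF1a promoter, so the cells of both fractions made extra LSM14A protein. After lysis and removal of nuclei, particles were pelleted, resuspended and sorted by their GFP fluorescence. The cytoplasm libraries were made from an aliquot taken before the sort and therefore still held P-body RNA. The study describes its samples of a group as biologically independent, while the sample labels name no separate cultures, so the p-values measure only the spread between these libraries, which may be technical.

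P-bodies are cytoplasmic condensates without a membrane, built from messenger RNA and from proteins that repress translation, shorten poly(A) tails and remove the 5′ cap. The helicase DDX6, the scaffold proteins LSM14A and EDC4, the decapping enzyme DCP2, the CCR4-NOT deadenylase and the Argonaute proteins that carry microRNAs all gather there. RNAs stored in P-bodies are mostly kept from ribosomes and can return to translation later.

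The naive libraries held between 10770150 and 12772246 assigned reads. Over 9496 genes with a mean of at least 10 CPM, read counts scaled to a common library size, the log2 difference between the replicates had a standard deviation (SD) of 0.133 for the P-body libraries and 0.438 for the cytoplasm libraries, so the cytoplasm pair carried most of the error. Both pairs differed by more than sampling noise, as the chi-square over its degrees of freedom was 1.97 for P-bodies and 40.1 for cytoplasm, and all 4 libraries were counted separately. CPM is a share of each library's own reads and says nothing of the total amount of RNA in a fraction. All 18 naive markers tested were present, with summed levels of 5966 and 5921 CPM in P-bodies against 6853 and 8184 CPM in cytoplasm. Of 19 primed markers 16 were tested, with summed levels of 452 and 444 CPM in P-bodies against 285 and 332 CPM in cytoplasm. The primed markers Fgf5, Fgf8 and Cer1 did not reach 10 reads. Markers of other cell types were examined next, and their part in the results was not tested. Of 7 tested fibroblast markers 1 was enriched in P-bodies and 2 were depleted (summed level 91.4 and 88.2 CPM in P-bodies against 116 and 86.6 CPM in cytoplasm). The 9 lung epithelium markers were not detected at 10 reads, and the blood list had 4 of its 12 genes tested, of which 2 were depleted (summed level 279.8 and 283 CPM in P-bodies against 327 and 303 CPM in cytoplasm). Of 7 neural genes tested 2 were enriched and 1 was depleted, and of 10 trophectoderm genes 1 was enriched and 1 was depleted (summed levels 50.7 and 49 CPM in P-bodies against 75.1 and 57.2 CPM in cytoplasm and 114 and 116 CPM in P-bodies against 228 and 128 CPM in cytoplasm). Of 10 primitive endoderm genes tested, 0 were enriched and 5 were depleted, with summed levels of 430.1 and 436 CPM in P-bodies against 863 and 840.0 CPM in cytoplasm. The cultures were measured in bulk, so the number of cells that express a marker and its RNA per cell cannot be told apart. By the study's methods the P-bodies were sorted out of the cytoplasm, so this limit concerns the level of a marker in the cultures.

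In the quasi-likelihood test of edgeR with Benjamini-Hochberg adjustment at 0.05, 3528 genes (22.6%) were enriched in P-bodies and 2413 (15.4%) were depleted, in total 38.0% of the genes tested. Enrichment reached further than depletion. The median log2 fold change, P-body over cytoplasm, was 1.38 among enriched and −0.86 among depleted genes, and 2435 enriched genes (15.6%) and 956 depleted genes (6.12%) differed at least 2-fold. Enriched genes made up 43.5% of P-body reads and 18.5% of cytoplasm reads, and depleted genes 16.6% and 32.2%. The median over all genes was −0.06, with quartiles at −0.57 and 0.68. Both P-body libraries lay above both cytoplasm libraries for 36.4% of genes and below them for 36.9%. Up to 1000 CPM the share of genes called rose with the level, from 3.75% enriched and 3.36% depleted under 1 CPM to 35.2% and 23.5% between 100 and 1000 CPM, and was 23.3% and 26.7% among the 60 genes above 1000 CPM. Among the 9496 genes with a mean of at least 10 CPM, 2922 were enriched and 1910 depleted. This is the background for gene lists whose members mostly reach that level.

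**Figure D1:**
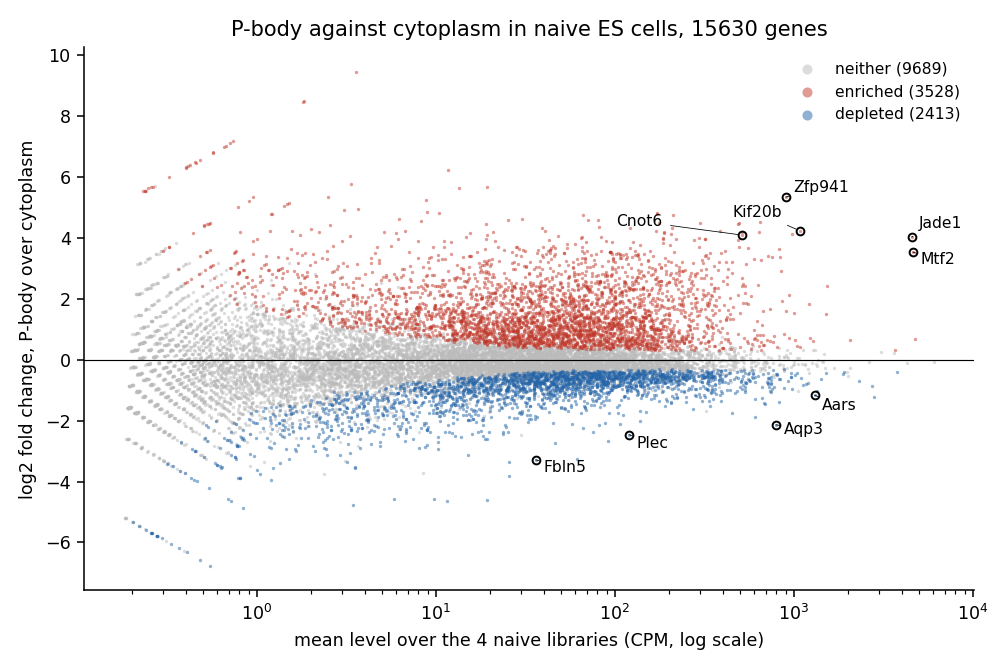
Log2 fold change of P-body over cytoplasm (vertical axis) against the mean level over the 4 naive libraries in CPM (horizontal log axis), 1 point per gene for 15630 genes, in red where enriched (3528), in blue where depleted (2413) and in grey otherwise. Labelled genes such as Zfp941, Jade1 and Mtf2 combine a high level with a large fold change, and the slanted rows of points at the left are genes with few reads, whose fitted fold changes depend on the prior count.

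The plot of fold change against level includes the genes with the most reads in P-bodies, of which some were enriched and some passed no test. Ranked by CPM, the 5 leading genes of the P-body libraries were Jade1, Mtf2, Hsp90aa1, Ftl1 and Hsp90ab1. Values of the 4 libraries are given from here on in the order P-body 1, P-body 2, cytoplasm 1 and cytoplasm 2, scaled by the TMM factors of the fit, and log2 fold changes with ± their standard error (SE). Jade1 (chr3:41555731-41616864, mm10), which encodes a scaffold of the HBO1 histone acetyltransferase, had 8821 and 8343 CPM in P-bodies against 321 and 725 CPM in cytoplasm (log2 fold change 4.04 ± 0.41, adjusted p = 0.00152). Mtf2 (chr5:108065674-108109004), a partner of Polycomb repressive complex 2, had 8536 and 8515 against 467 and 1000 CPM (log2 fold change 3.54 ± 0.38, adjusted p = 0.00174). Both genes lay far above cytoplasm in both P-body libraries, and for both the cytoplasm libraries differed from each other, so that Jade1 had a log2 fold change of 3.56 without cytoplasm library 1 and 4.76 without cytoplasm library 2 and Mtf2 of 3.09 and 4.21. The heat shock gene Hsp90aa1 was enriched, with 5822 and 5876 against 3545 and 3763 CPM (log2 fold change 0.68 ± 0.09, adjusted p = 0.00333). Ferritin light chain, encoded by Ftl1 (5803 and 6018 against 6077 and 6306 CPM), and the second cytosolic HSP90 gene, Hsp90ab1 (4159 and 4173 against 4726 and 4188 CPM), did not pass the test. Per kilobase of transcript, the levels in P-bodies and cytoplasm were 1537 against 93.6 CPM per kb for Jade1, 2099.9 against 181 CPM per kb for Mtf2 and 6106 against 6396 CPM per kb for Ftl1.

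The most enriched genes were taken as the 12 with the largest log2 fold change among called genes with at least 10 reads in each library, a mean of at least 50 CPM in the higher fraction and no overlap between the fractions. Of these, 7 are known by name as zinc finger genes, transcription factors of which many silence transposable elements. Zfp941 (chr7:140807449-140822178) had 1762 and 1762 CPM in P-bodies against 18.9 and 67.5 CPM in cytoplasm (log2 fold change 5.35 ± 0.63, adjusted p = 0.00245). Zfp120, Zfp937 and Zfp442 are neighbours on chromosome 2, at chr2:150114406-150136708, chr2:150218073-150240725 and chr2:150407141-150451486, and had levels of 333 and 335 against 6.79 and 16.7 CPM, 338 and 327 against 7.61 and 16.4 CPM and 133 and 125 against 3.43 and 6.13 CPM. Zfp948 on chromosome 17 had 404 and 411 against 9.70 and 20.1 CPM, the Y-linked Zfy1 had 58.6 and 57.6 against 1.42 and 3.28 CPM and Zik1 had 152 and 158 against 5.07 and 7.59 CPM. The log2 fold changes of these 6 genes lay between 4.61 and 4.83, with adjusted p-values of 0.000414 to 0.000909 in edgeR. All 4 values of each gene placed the P-body libraries together and the cytoplasm libraries more than 10 times lower. Zinc finger genes of this family are often near copies of each other, and since part of the counts were not whole numbers, as arises when shared reads are divided, values of single members are uncertain.

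The other 5 genes of these 12 follow. Polk (chr13:96480690-96542579), the polymerase kappa that copies past damaged DNA, had 949.9 and 939 CPM in P-bodies against 15.3 and 67.7 CPM in cytoplasm (log2 fold change 4.51 ± 0.70, adjusted p = 0.00605). Maml2, a co-activator of Notch signalling, had 136 and 138 against 3.36 and 7.81 CPM (log2 fold change 4.61 ± 0.36, adjusted p = 0.000732). Nsrp1, a splicing regulator of nuclear speckles, had 1234 and 1261 against 30.2 and 77 CPM (log2 fold change 4.54 ± 0.46, adjusted p = 0.00156). The kinase gene Pdik1l had 338 and 339 against 7.09 and 23 CPM (log2 fold change 4.49 ± 0.53, adjusted p = 0.00241). AI987944 on chromosome 7 had 577 and 567 against 13.6 and 36.9 CPM (log2 fold change 4.5 ± 0.47, adjusted p = 0.0017). In each of the 12 genes cytoplasm 1 was lower than cytoplasm 2. The log2 fold change without cytoplasm library 1 and without library 2 was 4.7 and 6.56 for Zfp941, 3.8 and 5.96 for Polk, 3.88 and 5.59 for Pdik1l, 4.02 and 5.38 for Nsrp1, 3.95 and 5.4 for AI987944, 4.32 and 5.63 for Zfp120, 4.13 and 5.36 for Maml2, 4.34 and 5.46 for Zfp937, 4.34 and 5.41 for Zfp948 and 4.14 and 5.36 for Zfy1. All 12 calls were also made with any of the 4 libraries left out.

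**Figure D2:**
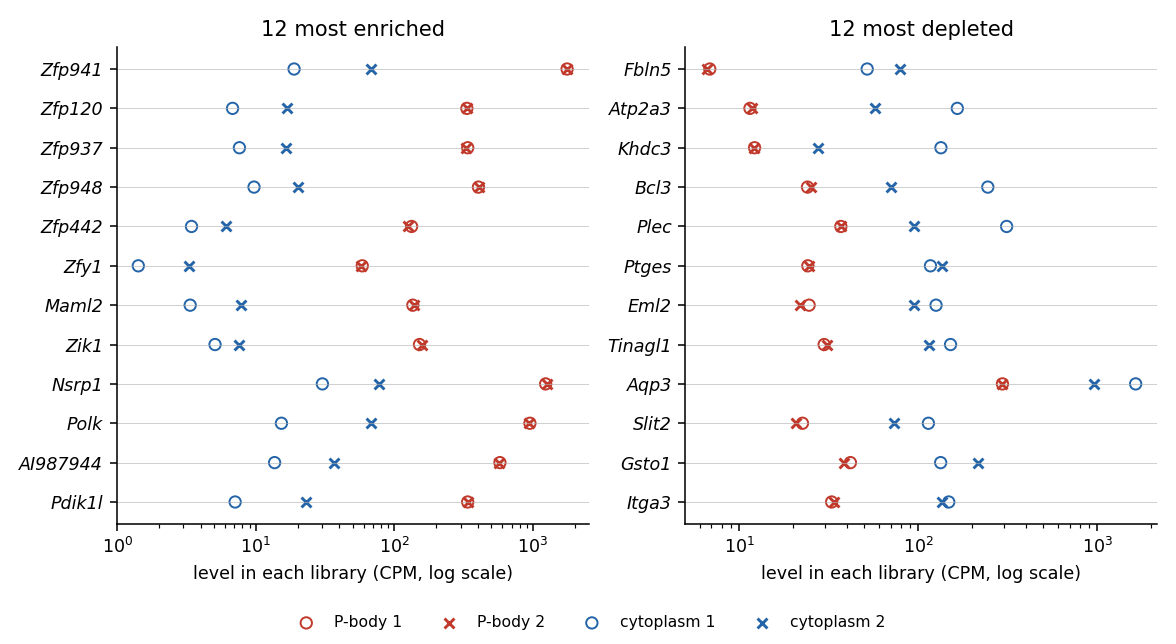
Level of the 12 most enriched genes (left) and the 12 most depleted genes (right) in each of the 4 naive libraries, on a log axis in CPM. Red symbols are P-body and blue symbols cytoplasm libraries, circles library 1 and crosses library 2. The red symbols nearly coincide in every row, while the blue symbols of Polk (15.3 and 67.7 CPM) or Khdc3 (134 and 27.6 CPM) lie well apart. Genes whose colours overlap were left out by the rule of choice.

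The 12 genes with the strongest depletion, chosen by the same rule in the opposite direction, included genes for matrix, secreted and membrane proteins. Fbln5 (chr12:101746565-101819055), a matrix protein of elastic fibres, had 6.85 and 6.60 CPM in P-bodies against 51.8 and 79.3 CPM in cytoplasm (log2 fold change −3.28 ± 0.25, adjusted p = 0.000714). That both P-body libraries lay below both cytoplasm libraries was part of the rule of choice for all 12 genes. Itga3, a laminin-binding integrin, had 32.8 and 34 against 148 and 136 CPM (log2 fold change −2.09 ± 0.11, adjusted p = 0.000414). The secreted guidance cue Slit2 had 22.6 and 20.7 against 114 and 73.6 CPM (log2 fold change −2.12 ± 0.24, adjusted p = 0.00202). The secreted matrix protein Tinagl1 had 29.8 and 30.8 against 151 and 115 CPM (log2 fold change −2.14 ± 0.17, adjusted p = 0.000716). These 3 genes share a place at or outside the cell surface. Aqp3 (chr4:41092722-41098183), a channel for water and glycerol, was the most abundant of the 12, with 295 and 295 against 1637 and 956 CPM (log2 fold change −2.13 ± 0.26, adjusted p = 0.00276). The calcium pump gene Atp2a3 had 11.5 and 11.8 against 165 and 57.4 CPM (log2 fold change −3.25 ± 0.53, adjusted p = 0.00729). Plec, which encodes the cytoskeletal linker plectin, had 36.9 and 37 against 312 and 94.3 CPM (log2 fold change −2.46 ± 0.56, adjusted p = 0.0212). 

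The remaining 5 of the most depleted genes follow. Ptges, the prostaglandin E synthase, had 24.2 and 24.7 against 117 and 136 CPM (log2 fold change −2.37 ± 0.13, adjusted p = 0.000414). Gsto1, a glutathione transferase, had 41.8 and 38.5 against 133 and 214 CPM (log2 fold change −2.11 ± 0.24, adjusted p = 0.00225). Both are enzymes of small molecules. The microtubule-binding Eml2 had 24.6 and 21.8 against 126 and 94.8 CPM (log2 fold change −2.25 ± 0.18, adjusted p = 0.000761). Khdc3, a protein of oocytes and ES cells with a role in genome stability, had 12.2 and 12.1 against 134 and 27.6 CPM (log2 fold change −2.73 ± 0.74, adjusted p = 0.0369). The NF-κB co-regulator Bcl3 had 24.1 and 25.3 against 244 and 70.7 CPM (log2 fold change −2.67 ± 0.59, adjusted p = 0.019). For Khdc3, Bcl3, Plec and Atp2a3 cytoplasm 1 lay well above cytoplasm 2, and the log2 fold change without library 1 and without library 2 was −1.19 and −3.45 for Khdc3, −1.52 and −3.29 for Bcl3, −1.35 and −3.06 for Plec and −2.3 and −3.81 for Atp2a3. Without either P-body library, 9 of the 12 calls were made.

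Calls of depletion depended on the tight P-body pair. Without P-body library 1, 50.6% of the enriched and 11.1% of the depleted genes were still called, and without P-body library 2, 51.2% and 11.2%, because the spread then came from the cytoplasm pair alone. Without cytoplasm library 1 or 2, at least 99.3% of both kinds were still called, with the spread taken from the P-body pair. No called gene changed direction in any of these fits. The counts of gene lists below shrink in the same way, and without a cytoplasm library many of them grow. Without P-body library 1 and without library 2, the enriched members numbered 5 and 5 against 12 for CCR4-NOT and PAN genes, 4 and 5 against 9 for core and decapping genes, 15 and 16 against 27 for histone lysine enzymes, 20 and 20 against 33 for centrosome and centromere genes and 4 and 4 against 12 for replication genes. Depleted members numbered 2 and 3 against 7 for collagens, 3 and 3 against 10 for laminins and integrins, 6 and 4 against 62 for solute carriers and 0 and 0 against 22 for mitochondrial ribosomal proteins.

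Among the factors that build and run P-bodies, transcripts of the helicase and of enzymes of decay were enriched and those of several small LSM subunits were depleted. Of 20 core and decapping genes tested, 9 were enriched and 4 depleted, with a median log2 fold change of 0.35 against −0.06 over all genes. Ddx6, the helicase without which P-bodies fall apart, had 129 and 110.3 CPM in P-bodies against 17.2 and 27.1 CPM in cytoplasm (log2 fold change 2.43 ± 0.24, adjusted p = 0.00136). Lsm14a had 146 and 143 against 68.7 and 71.5 CPM (log2 fold change 1.04 ± 0.10, adjusted p = 0.0012), and whether reads from the GFP-LSM14A construct entered this count was not tested. Edc4, an enhancer of decapping, had 199.7 and 208 against 356 and 252 CPM and did not pass the test (log2 fold change −0.58 ± 0.18, adjusted p = 0.0527), but was called depleted by DESeq2 (adjusted p = 0.0244) and in edgeR with the replicate number as a block (adjusted p = 0.0334). The fractions overlapped for neither Ddx6 nor Lsm14a, and both P-body libraries lay above both cytoplasm libraries for 36.4% of all genes tested. Lsm4, a subunit of the ring that binds the ends of shortened RNAs, had 157 and 165 against 349 and 227 CPM (log2 fold change −0.84 ± 0.21, adjusted p = 0.0295). Singled out after their values were seen, the decapping enzyme gene Dcp2 had 66 and 59.1 against 20.5 and 30.6 CPM (log2 fold change 1.29 ± 0.21, adjusted p = 0.00758). Xrn1, the exonuclease that degrades decapped RNA, had 70.1 and 62.5 against 23 and 21.8 CPM (log2 fold change 1.56 ± 0.13, adjusted p = 0.00081).

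Most genes of the deadenylase complexes were enriched. Of 19 CCR4-NOT and PAN genes 12 were enriched and 3 depleted (median 0.60). Cnot6, a catalytic subunit that removes poly(A) tails, had 948 and 984 CPM in P-bodies against 37.8 and 74.8 CPM in cytoplasm (log2 fold change 4.1 ± 0.34, adjusted p = 0.000857, 3.69 without cytoplasm library 1 and 4.69 without cytoplasm library 2). Cnot3, a subunit of the NOT module, had 57.4 and 53.6 against 103 and 103 CPM (log2 fold change −0.89 ± 0.10, adjusted p = 0.00228). Of 15 genes of nonsense-mediated decay 3 were enriched and 4 depleted (median −0.26), with Upf3b at 74.6 and 70.2 against 10.1 and 12.2 CPM (log2 fold change 2.7 ± 0.15, adjusted p = 0.000414) and the central helicase gene Upf1 at 164 and 167 against 343 and 229 CPM (log2 fold change −0.79 ± 0.20, adjusted p = 0.0308).

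Transcripts for proteins that bind 3′ untranslated regions (UTRs) had more enriched than depleted members. Of 27 such genes 15 were enriched and 3 depleted, with a median of 0.99 and medians of 1.06 and 0.83 for the libraries numbered 1 and 2. Pum2, a Pumilio repressor that reads the motif TGTANATA, had 204 and 203 against 14.4 and 23.4 CPM (log2 fold change 3.43 ± 0.24, adjusted p = 0.000573). Khsrp, which binds AU-rich elements, had 48.7 and 48.3 against 133 and 98.1 CPM (log2 fold change −1.25 ± 0.17, adjusted p = 0.00383). Of 15 genes that write, read or erase the m6A mark 9 were enriched and 0 were depleted (median 0.60), among them Cbll1, a subunit of the writer complex, at 116 and 97.4 against 21.4 and 31.7 CPM (log2 fold change 2.01 ± 0.22, adjusted p = 0.00187) and the reader Ythdf2 at 423 and 423 against 157 and 155 CPM (log2 fold change 1.44 ± 0.09, adjusted p = 0.000498). Of 30 SR and hnRNP splicing genes 11 were enriched and 4 depleted, a mixture with Srsf3 at 1000.4 and 1025 against 326 and 336 CPM (log2 fold change 1.61 ± 0.09, adjusted p = 0.000424) and Hnrnpul2 at 9.26 and 8.57 against 15.4 and 17.7 CPM (log2 fold change −0.89 ± 0.19, adjusted p = 0.0162).

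In the microRNA pathway 7 of 16 genes were enriched and 0 depleted (median 0.34). Lin28b, which blocks maturation of let-7 microRNAs, had 36.2 and 33.9 against 2.69 and 2.92 CPM (log2 fold change 3.64 ± 0.17, adjusted p = 0.000414). Its relative Lin28a had low levels of 8.46 and 7.02 against 1.86 and 0.219 CPM (log2 fold change 2.89 ± 0.76, adjusted p = 0.0334), and its log2 fold change was 5.07 without cytoplasm library 1 and 2.06 without cytoplasm library 2. Trim71, a translational repressor of ES cells, had 74.9 and 97.7 against 49.3 and 30.3 CPM (log2 fold change 1.12 ± 0.26, adjusted p = 0.0243). Ago2, the Argonaute that can cut its targets, had 120.4 and 115 against 64 and 78.5 CPM (log2 fold change 0.72 ± 0.13, adjusted p = 0.0108). Tnrc6a, a GW182 protein that links Argonaute to the deadenylases and was also chosen after its values were seen, had 351 and 329 against 28.6 and 49 CPM (log2 fold change 3.13 ± 0.27, adjusted p = 0.000904). Xpo5, the exporter of microRNA precursors, had 183 and 172 against 257 and 186 CPM and did not pass the test (adjusted p = 0.199 in edgeR).

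Regulators of chromatin include the zinc finger family already met among the most enriched genes. The 351 tested genes with numbered zinc finger (Zfp) symbols had 236 enriched and 12 depleted members and a median of 1.64 (medians of 1.72 and 1.39 for libraries 1 and 2), and their summed level was 35547 and 34554 CPM in P-bodies against 7841 and 9403 CPM in cytoplasm. Without single libraries between 174 and 261 members were enriched. Zfp414 was an exception, with 41.9 and 39.4 against 81.3 and 81.6 CPM (log2 fold change −1.0 ± 0.11, adjusted p = 0.00183). Of 17 enzymes and readers of DNA methylation 10 were enriched and 0 were depleted (median 0.93). Tet2, which oxidises methylated cytosine, had 1159 and 972 CPM in P-bodies against 143 and 246 CPM in cytoplasm (log2 fold change 2.45 ± 0.28, adjusted p = 0.00215). Zbtb38, a zinc finger protein that binds methylated DNA, had 237 and 221 against 17.2 and 27.3 CPM (log2 fold change 3.36 ± 0.24, adjusted p = 0.000573). The methyltransferase gene Dnmt3a had 186 and 173 against 49.5 and 87.1 CPM (log2 fold change 1.39 ± 0.27, adjusted p = 0.0126).

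Writers and erasers of histone methylation and remodelling ATPases had both kinds of member. Of 52 histone lysine methyltransferases and demethylases 27 were enriched and 5 depleted (median 0.50). Genes of the same family of methyltransferases lay on both sides, Kmt2e with 1205 and 1226 against 37.6 and 95 CPM (log2 fold change 4.2 ± 0.46, adjusted p = 0.00188, 3.68 without cytoplasm library 1 and 5.03 without cytoplasm library 2) and Kmt2d with 24.4 and 21.4 against 56.5 and 54.4 CPM (log2 fold change −1.28 ± 0.13, adjusted p = 0.00153). Of 27 remodelling ATPases 15 were enriched and 3 depleted (median 0.58), from Chd2 at 492 and 482 against 61.2 and 82.1 CPM (log2 fold change 2.76 ± 0.17, adjusted p = 0.000437) to Ep400 at 34.4 and 33.1 against 66.2 and 68.6 CPM (log2 fold change −1.0 ± 0.11, adjusted p = 0.00205). Of 32 Mediator subunits, which link transcription factors to RNA polymerase II, 8 were enriched and 7 depleted, shares near those of all genes with at least 10 CPM. Among them were the kinase Cdk19 at 73.3 and 77.4 against 13.5 and 15.3 CPM (log2 fold change 2.38 ± 0.13, adjusted p = 0.000414) and Med25 at 88.3 and 88.1 against 177 and 164 CPM (log2 fold change −0.95 ± 0.10, adjusted p = 0.0017).

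Genes of cell division, DNA replication and repair were counted by family. Of 56 genes named for centrosomes and centromeres (Cep, Cenp) 33 were enriched and 6 depleted (median 0.67), as were 15 and 2 of 35 kinesins (median 0.33). Kif20b (chr19:34922361-34975745), a kinesin that acts in cytokinesis, had 2119 and 1981 CPM in P-bodies against 72.5 and 144 CPM in cytoplasm (log2 fold change 4.24 ± 0.35, adjusted p = 0.000838, 3.83 without cytoplasm library 1 and 4.84 without cytoplasm library 2). Cenpf, a kinetochore protein with a cell cycle dependent level, had 640.1 and 626 against 266 and 229 CPM (log2 fold change 1.36 ± 0.11, adjusted p = 0.000857). Cep170b, by contrast, lay lower in P-bodies, with 38.8 and 37.9 against 104 and 99.6 CPM (log2 fold change −1.41 ± 0.11, adjusted p = 0.000664). Of 24 cyclins 13 were enriched and 1 was depleted (median 0.61). Ccne2, an activator of CDK2 at the entry to S phase, had 138 and 132 against 8.88 and 16.1 CPM (log2 fold change 3.43 ± 0.28, adjusted p = 0.000818). Cyclins of other phases are shown for comparison. The mitotic cyclin gene Ccnb1 had 914 and 909 against 612 and 608 CPM (log2 fold change 0.58 ± 0.09, adjusted p = 0.00605). The G1 cyclin gene Ccnd3 had 315 and 318 against 557 and 526 CPM (log2 fold change −0.78 ± 0.09, adjusted p = 0.00273). Of 44 replication genes 12 were enriched, a share near that of all genes, with the clamp loader subunit Rfc1 at 515 and 527 against 159.6 and 135 CPM (log2 fold change 1.82 ± 0.12, adjusted p = 0.00051), and 2 were depleted, one of them Rpa3 at 25.5 and 24.8 against 35.1 and 38.7 CPM (log2 fold change −0.55 ± 0.13, adjusted p = 0.0235). Among 70 repair genes 30 were enriched and 6 depleted (median 0.29), with Polk among the enriched and Mad2l2, a partner of translesion polymerases, among the depleted (32.5 and 29.6 against 58 and 60.7 CPM, log2 fold change −0.93 ± 0.12, adjusted p = 0.00322). Ubiquitin-specific proteases had 26 enriched and 3 depleted genes of 48 (median 0.57), from Usp53 at 197 and 161 against 12.4 and 22.4 CPM (log2 fold change 3.36 ± 0.30, adjusted p = 0.00101) to Usp22 at 176 and 163 against 246 and 241 CPM (log2 fold change −0.52 ± 0.10, adjusted p = 0.0119).

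Transcripts for the parts of ribosomes and of the respiratory chain were depleted in about every other gene, by small differences. Of 84 cytosolic ribosomal protein genes 44 were depleted and 0 were enriched (median −0.44, and −0.31 and −0.53 for libraries 1 and 2), with summed levels of 21181 and 21095 CPM in P-bodies against 27812 and 29702 CPM in cytoplasm. Rpl4, a protein of the large subunit, had 1259 and 1275 against 1387 and 1369.9 CPM and did not pass the test (log2 fold change −0.12 ± 0.09, adjusted p = 0.322). Of 83 nuclear genes for respiratory chain subunits 45 were depleted and 1 was enriched (median −0.51). Cox8a, a subunit of cytochrome oxidase, had 222 and 215 against 496 and 629 CPM (log2 fold change −1.36 ± 0.14, adjusted p = 0.00164). Atp5b, the catalytic subunit of ATP synthase, had 3226 and 3235 against 4267 and 4267 CPM (log2 fold change −0.40 ± 0.08, adjusted p = 0.0168), and the single enriched gene was Atp5pb with 358 and 362 against 277 and 290.1 CPM (log2 fold change 0.35 ± 0.09, adjusted p = 0.037). It was not called by DESeq2 (adjusted p = 0.081) or with the replicate block in edgeR (adjusted p = 0.0865). Without P-body library 1 or without P-body library 2, 0 ribosomal protein genes and 3 respiratory chain genes were called depleted, and without cytoplasm library 1 and 2 the counts were 78 and 64 for ribosomal proteins and 71 and 61 for the respiratory chain. Mitochondrial ribosomal proteins had 22 depleted and 7 enriched genes of 78 (median −0.28). Ribosomal protein genes have many processed copies in the genome, and how reads shared with such copies were counted is not given in the sources used here.

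Other parts of translation were split. Of 56 initiation and elongation factors 18 were enriched and 12 depleted (median −0.04). At least 10 CPM was reached by 55 of them, and their shares were near those of all genes at that level. Eif2ak2, the kinase PKR that halts initiation when it meets double-stranded RNA, had 108 and 97.9 against 12.7 and 17.7 CPM (log2 fold change 2.76 ± 0.19, adjusted p = 0.000549). The scaffold gene Eif4g1 had 405 and 390.1 against 761 and 601 CPM (log2 fold change −0.78 ± 0.14, adjusted p = 0.00989). Eef1a1, which brings tRNAs to the ribosome, had 2534 and 2599 against 2781 and 2649.9 CPM and did not pass the test (adjusted p = 0.505 in edgeR). Cytosolic aminoacyl-tRNA synthetases, which charge tRNAs, had 11 depleted and 0 enriched genes of 22 (median −0.39). Aars (chr8:111033144-111057664), the alanine synthetase, had 808 and 809 CPM in P-bodies against 2182 and 1429 CPM in cytoplasm (log2 fold change −1.16 ± 0.21, adjusted p = 0.00987). Without P-body library 1 or P-body library 2 the synthetases had 0 calls.

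Enzymes of central metabolism had depleted and enriched members in each pathway examined, beside 15.4% depleted and 22.6% enriched among all genes tested. Of 16 tricarboxylic acid cycle genes 6 were depleted and 1 was enriched, Dld at 114 and 111 against 80.1 and 87.2 CPM (log2 fold change 0.43 ± 0.10, adjusted p = 0.0259), which DESeq2 did not call (adjusted p = 0.0526). Of 17 glycolysis genes 4 were depleted, with Pfkp at 225 and 221 against 394 and 474 CPM (log2 fold change −0.96 ± 0.12, adjusted p = 0.00328), and 3 were enriched, with Ldhb at 534 and 532 against 327 and 331 CPM (log2 fold change 0.70 ± 0.09, adjusted p = 0.00344). Cholesterol synthesis had 5 enriched genes, among them Hsd17b7 at 70.4 and 69 against 16.7 and 20.4 CPM (log2 fold change 1.91 ± 0.14, adjusted p = 0.000679), and 6 depleted genes of 24. Proteasome genes numbered 4 enriched and 9 depleted of 37, with Psmd8 at 164 and 170.5 against 264 and 269 CPM (log2 fold change −0.67 ± 0.09, adjusted p = 0.00433).

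Among transcripts of secreted and membrane proteins, those of the matrix and its receptors had no enriched member. None of 28 laminins and integrins was enriched and 10 were depleted (median −0.95), and of 29 collagens 0 were enriched and 7 depleted (median −0.83). Only 15 of these laminins and integrins and 5 of the collagens had at least 10 CPM, with 8 and 4 depleted. Once a trend on GC content and length was removed, the medians were −0.61 and −0.33. Lamc1, a laminin of basement membranes, had 609 and 604 against 1332 and 991 CPM (log2 fold change −0.94 ± 0.16, adjusted p = 0.00815). Col4a2, a collagen of the same membranes, had 9.97 and 10 against 33.6 and 26.6 CPM (log2 fold change −1.59 ± 0.18, adjusted p = 0.0022). The 253 solute carriers had 31 enriched and 62 depleted genes (median −0.33). Slc27a2, a fatty acid transporter, was among the enriched, with 42.3 and 38.1 against 10.8 and 11.1 CPM (log2 fold change 1.87 ± 0.14, adjusted p = 0.000688). Within the endoplasmic reticulum list 9 of 32 genes were enriched and 7 depleted, shares near those of all genes with at least 10 CPM. Its members included the translocon subunit Sec62 at 232 and 236 against 30.4 and 40.7 CPM (log2 fold change 2.72 ± 0.17, adjusted p = 0.000437) and Uggt1, which checks glycoprotein folding, at 229 and 218 against 452 and 351 CPM (log2 fold change −0.84 ± 0.15, adjusted p = 0.00905).

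**Figure D3:**
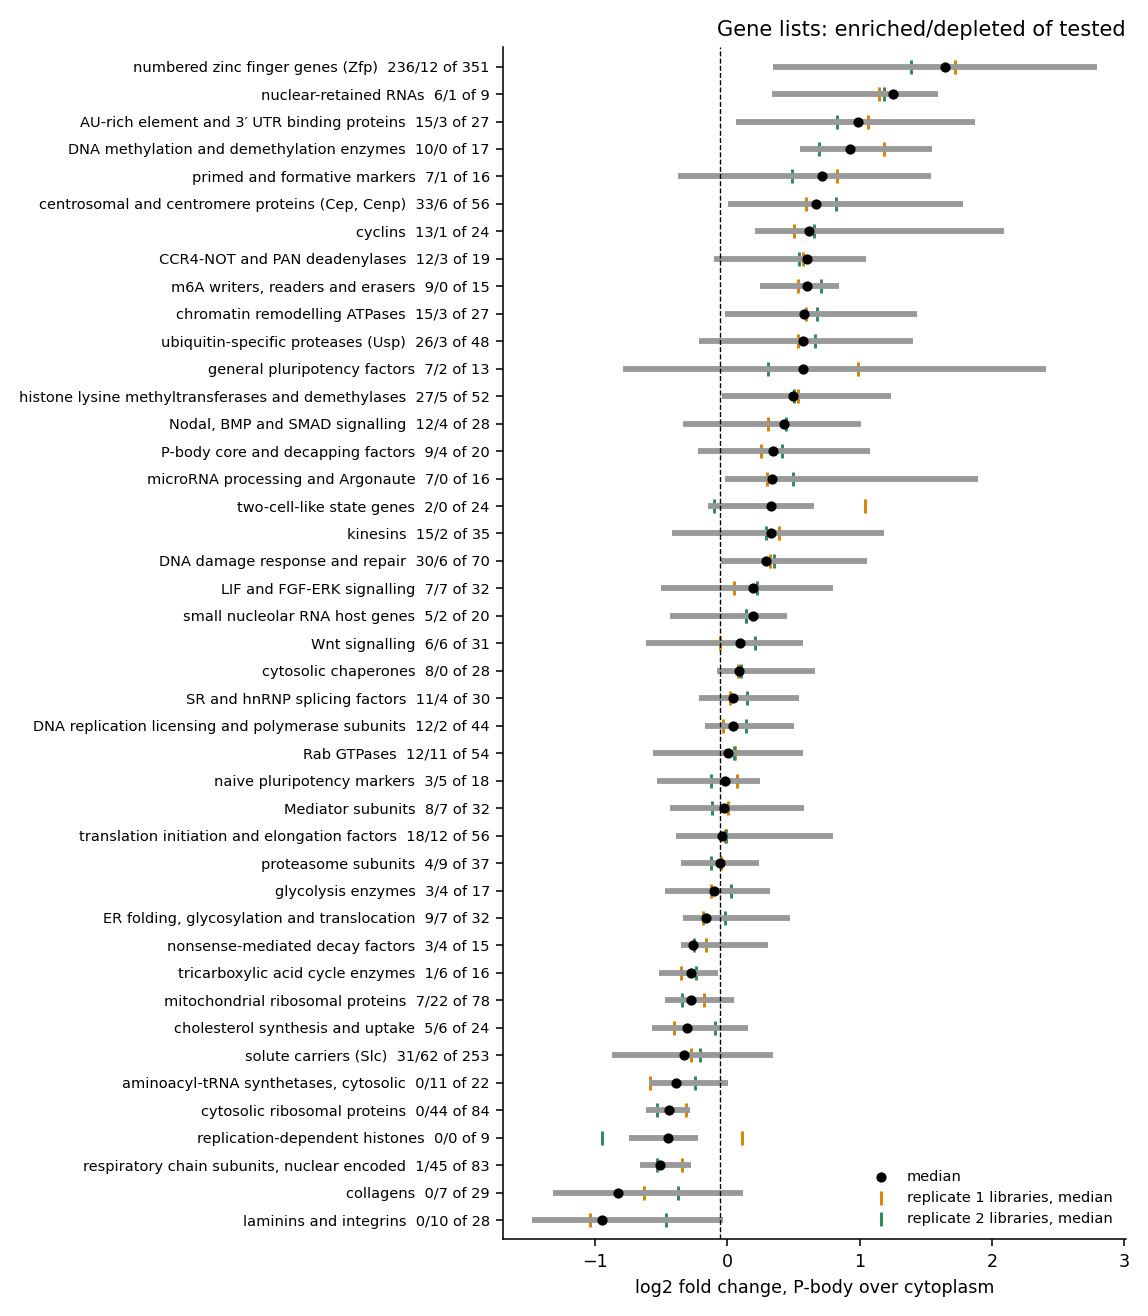
Log2 fold change of P-body over cytoplasm for 43 gene lists, ordered by their median (black dot), with grey bars from the lower to the upper quartile of the tested members and coloured ticks for the medians of the libraries numbered 1 and 2. The dashed line is the median of all 15630 genes (−0.06), and the counts give enriched and depleted members of those tested. Zinc finger genes lie at the top (236 of 351 enriched), and ribosomal proteins, respiratory chain, collagens, laminins and integrins at the bottom.

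Pluripotency genes were found on both sides. Of 18 naive markers 3 were enriched and 5 depleted (median −0.02, and 0.06 without cytoplasm library 2). Well-known factors among them were depleted, with Nanog at 409.8 and 399 CPM in P-bodies against 593 and 643 CPM in cytoplasm (log2 fold change −0.61 ± 0.10, adjusted p = 0.0068) and the nuclear receptor gene Esrrb at 74 and 69 against 137 and 126 CPM (log2 fold change −0.88 ± 0.11, adjusted p = 0.00271). Dppa5a, a marker of early embryonic cells, had 1943 and 1951 against 2982 and 4121 CPM (log2 fold change −0.87 ± 0.17, adjusted p = 0.0125), and the nuclear receptor gene Nr5a2 was enriched with 19.1 and 19.6 against 4.77 and 4.09 CPM (log2 fold change 2.13 ± 0.20, adjusted p = 0.00115). Zfp42, also known as Rex1, had 482 and 476 against 423 and 480.1 CPM and Dppa2, a regulator of the early embryonic programme, had 236 and 236 against 99.6 and 218 CPM. Neither passed the test (adjusted p = 0.558 and 0.252 in edgeR), and the log2 fold change of Dppa2 was 0.11 without cytoplasm library 1 and 1.26 without cytoplasm library 2.

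The 13 factors shared by naive and primed cells had 7 enriched and 2 depleted members (median 0.57). Pou5f1 and Sox2 encode OCT4 and its partner on DNA, and they took opposite sides. Pou5f1 was depleted, with 369.7 and 375 CPM in P-bodies against 582 and 741 CPM in cytoplasm (log2 fold change −0.83 ± 0.14, adjusted p = 0.00823). Sox2, which was chosen after its values were seen, was enriched, with 819 and 775 CPM in P-bodies against 79.7 and 142 CPM in cytoplasm (log2 fold change 2.85 ± 0.28, adjusted p = 0.00143). The fractions overlapped in neither gene, where P-body libraries lay above both cytoplasm libraries for 36.4% of all genes and below them for 36.9%. Zfp281, a zinc finger factor of the exit from the naive state, had 1034 and 1017 CPM in P-bodies against 60 and 101 CPM in cytoplasm (log2 fold change 3.67 ± 0.27, adjusted p = 0.000639). Rif1, a regulator of replication timing, had 1562 and 1506 against 293 and 408 CPM (log2 fold change 2.13 ± 0.18, adjusted p = 0.000847). Trim28, the corepressor of zinc finger proteins, had 499.5 and 529 against 955 and 1026 CPM (log2 fold change −0.95 ± 0.10, adjusted p = 0.00165). Of 16 primed markers 7 were enriched and 1 was depleted (median 0.71, summed level 452 and 444 CPM in P-bodies against 285 and 332 CPM in cytoplasm). Only 4 of these markers had at least 10 CPM, and of the 4, 2 were enriched and 1 was depleted (median 0.97). Genes of the 2-cell-like state, a rare state of ES cell cultures that resembles the 2-cell embryo, had 2 enriched and 0 depleted of 24. DESeq2 called 4 enriched and the replicate block 6, without cytoplasm library 1 there were 6 enriched and 7 depleted, and without cytoplasm library 2 there were 15 and 1. Their median of 0.33 came from medians of 1.04 and −0.10 for libraries 1 and 2, and it was −0.08 without cytoplasm library 1 and −0.18 once a trend on GC content and length was removed. The enriched pair was Zfp809, which silences retroviruses, with 163 and 137 against 29.6 and 63.2 CPM (log2 fold change 1.69 ± 0.35, adjusted p = 0.0164, 1.24 without cytoplasm library 1 and 2.35 without cytoplasm library 2) and Eif1a, an initiation factor, with 358 and 353 against 132 and 139 CPM (log2 fold change 1.39 ± 0.10, adjusted p = 0.000553).

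Signalling components were mixed within each pathway, as were all genes tested, of which 22.6% were enriched and 15.4% depleted. The LIF and FGF-ERK list had 7 enriched and 7 depleted genes of 32, with the small GTPase gene Nras among the enriched at 304 and 308 against 56.5 and 55.4 CPM (log2 fold change 2.45 ± 0.10, adjusted p = 0.000414). Wnt signalling had 6 enriched and 6 depleted genes of 31, from the feedback inhibitor Axin2 at 21.6 and 17.3 against 5.30 and 3.80 CPM (log2 fold change 2.1 ± 0.26, adjusted p = 0.00269) to the co-receptor Lrp5 at 7.25 and 5.48 against 29.4 and 20.1 CPM (log2 fold change −1.96 ± 0.27, adjusted p = 0.00415). Ctnnb1, which encodes β-catenin, had 755 and 734 against 715 and 678 CPM and did not pass the test (adjusted p = 0.454 in edgeR). In the Nodal and BMP list 12 of 28 genes were enriched and 4 depleted (median 0.43). Lefty1 (chr1:180935022-180938400), an extracellular inhibitor of Nodal, had 154 and 157 CPM in P-bodies against 17.5 and 8.54 CPM in cytoplasm (log2 fold change 3.58 ± 0.33, adjusted p = 0.00111). Smad3, an effector of the same pathway, had 11.5 and 10.6 against 24.7 and 16.6 CPM (log2 fold change −0.90 ± 0.24, adjusted p = 0.0348). For Lefty1 the log2 fold change was 4.18 without cytoplasm library 1 and 3.17 without cytoplasm library 2.

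Long non-coding RNAs known for their retention in the nucleus were also present in the sorted particles. Of 9 tested 6 were enriched and 1 was depleted (median 1.25). Only 5 of them had at least 10 CPM, and of these 2 were enriched and 1 was depleted (median 0.33). Malat1, an RNA of nuclear speckles, had 550.1 and 524 CPM in P-bodies against 148 and 220.4 CPM in cytoplasm (log2 fold change 1.54 ± 0.20, adjusted p = 0.00342). Neat1, the scaffold of paraspeckles, had 9.66 and 7.80 against 19.5 and 16.8 CPM (log2 fold change −1.06 ± 0.20, adjusted p = 0.0127). The maternally expressed Rian had 20.2 and 18.2 against 8.50 and 4.09 CPM (log2 fold change 1.61 ± 0.36, adjusted p = 0.0199, 2.23 without cytoplasm library 1 and 1.19 without cytoplasm library 2). The host genes of small nucleolar RNAs had 5 enriched and 2 depleted of 20. Nuclei were removed before the sort, and the part of remaining nuclear RNA in either fraction was not tested.

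Among the features of transcripts that were computed, base composition had the largest correlations with the fold change. Spearman's correlation of the log2 fold change with the GC content of the longest annotated transcript was −0.61 over 15437 genes, and −0.70 over the 9449 genes with at least 10 CPM. Within coding sequence, it was −0.54 with GC at the third codon position and −0.39 with GC at first and second positions, and it was −0.52 with the GC content of the 3′ UTR and −0.10 with that of the 5′ UTR. These are correlations across genes of the same 4 libraries, which are not independent replicates, and the difference between the cytoplasm libraries themselves correlated with GC content at 0.26. In the lowest bin of GC at the third position, under 35%, 79.6% of 289 genes were enriched and 2.42% depleted, with a median log2 fold change of 2.17. In the highest bin, 75% and over, 4.64% of 1165 genes were enriched and 28.8% depleted, with a median of −0.56. The median difference of cytoplasm 1 minus cytoplasm 2 in these bins was −0.44 and 0.08, on the same scale, and its part in the relation was not tested.

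**Figure D4:**
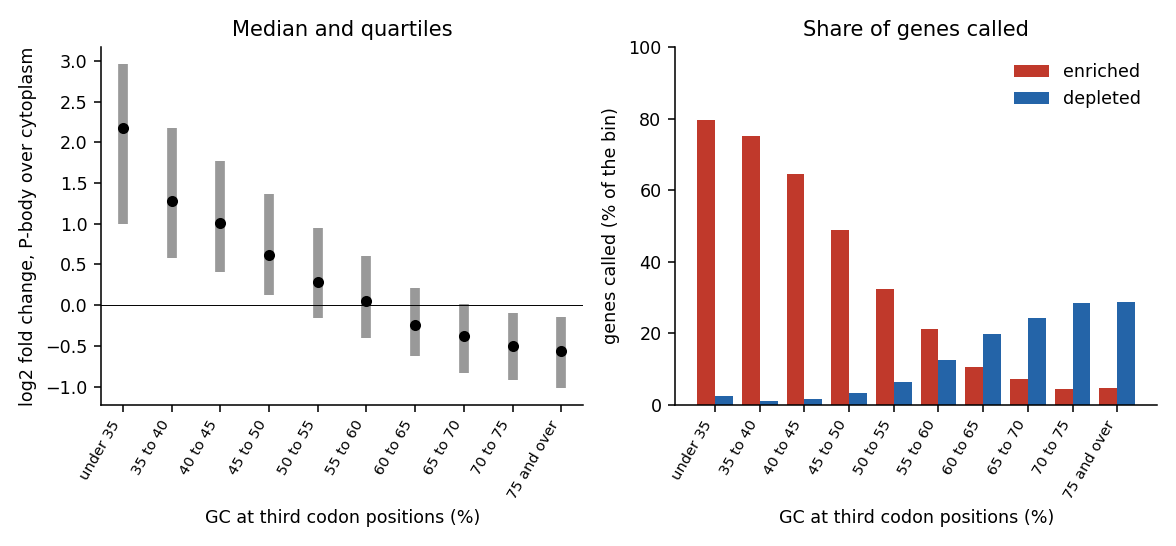
Log2 fold change (left, dots are medians and bars run from the lower to the upper quartile) and share of genes enriched in red and depleted in blue (right) for genes in bins of GC content at the third codon position. The median falls from 2.17 in the lowest bin to −0.56 in the highest, and the share enriched falls from 79.6% to 4.64%.

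The plot by GC bins can be read in the coding sequence itself. The following stretches are 90 bases in frame from single exons at or near the 3′ end of the coding sequence (GENCODE M21, GRCm38, coding strand), chosen to show the codons of 3 enriched genes and 3 depleted ones, with the third base of every codon in capitals.
Zfp120, chr2:150117159-150117248, minus strand: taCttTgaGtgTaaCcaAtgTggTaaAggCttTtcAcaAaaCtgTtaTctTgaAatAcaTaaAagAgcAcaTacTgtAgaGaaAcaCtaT
Kif20b, chr19:34974481-34974570, plus strand: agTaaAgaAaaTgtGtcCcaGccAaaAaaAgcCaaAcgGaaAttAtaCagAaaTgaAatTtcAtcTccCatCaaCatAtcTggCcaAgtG
Polk, chr13:96483492-96483581, minus strand: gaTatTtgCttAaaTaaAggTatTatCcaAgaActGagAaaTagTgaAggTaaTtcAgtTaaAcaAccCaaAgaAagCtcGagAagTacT
Aars, chr8:111055112-111055201, plus strand: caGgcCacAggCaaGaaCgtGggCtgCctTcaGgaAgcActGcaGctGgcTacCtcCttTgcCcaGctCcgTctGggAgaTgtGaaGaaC
Itga3, chr11:95046483-95046572, minus strand: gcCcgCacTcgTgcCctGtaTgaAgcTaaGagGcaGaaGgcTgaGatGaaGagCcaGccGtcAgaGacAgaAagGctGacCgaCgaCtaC
Cox8a, chr19:7215392-7215481, minus strand: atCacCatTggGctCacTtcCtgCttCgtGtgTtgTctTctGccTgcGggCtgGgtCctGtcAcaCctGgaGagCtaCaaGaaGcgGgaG
Most capitals in the first group are A or T and most in the second are G or C. Over these stretches G or C took 23.3%, 36.7% and 20% of the third positions in Zfp120, Kif20b and Polk, and 70%, 70% and 76.7% in Aars, Itga3 and Cox8a. Over the whole coding sequence the values were 27.2%, 37.5% and 42.9% for the enriched genes and 62.7%, 70.5% and 82.9% for the depleted ones.

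Codon and amino acid use followed the same division. Of 59 codons with a synonym, 25 of the 30 that end in A or T were positively correlated with the log2 fold change across 14403 genes, and 26 of the 29 that end in G or C were negatively correlated. The extremes were the lysine codon AAA (0.50) and the glutamate codon GAA (0.46) at one end, and the leucine codon CTG (−0.45) and the alanine codon GCC (−0.43) at the other. Lysine made up 7.26% of residues encoded by enriched genes and 5.03% of those encoded by depleted genes, and alanine 6.27% and 7.88%. Not every gene followed it. Lefty1 and Trim71 were enriched with 77.5% and 79.8% GC at the third position.

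The share of enriched genes also varied with length. The share of enriched genes was 5.65% among transcripts under 1000 nucleotides and 40.4% among those of 8000 and more, while the share depleted was 19.7% and 13.4%. The correlation with length was 0.22, that with coding length 0.08 and that with the length of the 3′ UTR 0.28. With the transcript of median length in place of the longest they were 0.11, 0.05 and 0.13, so the relation with length depended on the transcript chosen. The median 3′ UTR was 1834 nucleotides long in enriched genes, 925 in genes with neither call and 747 in depleted genes. After a smooth trend on GC content and then on length was removed, the zinc finger genes kept a median of 0.78 and the ribosomal proteins one of −0.18. In 32 of 47 gene lists the median moved by more than the SD between same-numbered library pairs, and 15 stayed within it. It was 0.04 for core and decapping genes, 0.13 for CCR4-NOT and PAN genes, and 0.17 for m6A genes and for remodelling ATPases. For DNA methylation genes it was 0.99, for 3′ UTR-binding proteins 0.44 and for the microRNA pathway 0.43.

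3′ UTRs are also where microRNAs bind, through bases 2 to 8 of the microRNA, the seed. The microRNAs below were chosen because the miR-290 and miR-302 families are the most prominent in ES cells, let-7 is their counterpart in differentiated cells, and miR-381 has a seed rich in A and U (RefSeq, GRCm38.p6, seed in capitals).
mmu-miR-291a-3p, chr7:3218968-3218989, plus strand: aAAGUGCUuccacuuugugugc
mmu-miR-294-3p, chr7:3220691-3220712, plus strand: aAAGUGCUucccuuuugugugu
mmu-miR-295-3p, chr7:3220815-3220837, plus strand: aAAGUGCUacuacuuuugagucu
mmu-miR-302b-3p, chr3:127545275-127545297, plus strand: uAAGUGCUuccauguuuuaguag
mmu-miR-302d-3p, chr3:127545665-127545687, plus strand: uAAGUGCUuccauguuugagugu
mmu-let-7a-5p, chr13:48538239-48538260, minus strand: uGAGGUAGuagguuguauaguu
mmu-miR-381-3p, chr12:109726870-109726891, plus strand: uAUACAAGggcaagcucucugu
The first 5 share the seed AAGUGCU, whose complement in an mRNA reads AGCACTT, and the site of let-7 reads CTACCTC and that of miR-381 CTTGTAT.

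These letters were looked for on the transcript strand of 14153 annotated 3′ UTRs. AGCACTT was present in 16.6% of them, and 38.0% of the genes with it were enriched in P-bodies against 20.3% of the genes without it. The share was higher with the site than without it in each of 5 bins of 3′ UTR length and each of 4 bins of its GC content, and it was 46.0% among the 435 genes with at least 2 sites. CTTGTAT was present in 12.3% of 3′ UTRs, with 40.5% of genes enriched against 20.8% without it. Its share was also higher with the site in each of these bins, and 56.9% among the 255 genes with at least 2 sites. CTACCTC was present in 10.2%, with 27.0% enriched against 22.8%, but the share was lower with the site than without it in each bin of 3′ UTR length and higher in each bin of its GC content. After the trend on GC content and length was removed, the median log2 fold change with and without the site was 0.09 and −0.01 for AGCACTT, while for CTTGTAT and CTACCTC both medians were near 0.

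Single sites can be seen in genes already described. The stretches below are 29 bases around a seed site in the 3′ UTR (GENCODE M21, GRCm38, transcript strand, site in capitals), shown for 3 enriched genes with an AGCACTT site and for 3 enriched let-7 target genes.
Tet2, chr3:133465904-133465932, minus strand: tgtcttagaaaAGCACTTtgcctacctaa
Zbtb38, chr9:96684685-96684713, minus strand: gaaatcagtagAGCACTTggaatctgact
Lefty1, chr1:180938202-180938230, plus strand: actgtatgcgaAGCACTTacatgtataga
Lin28b, chr10:45381012-45381040, minus strand: gggcgggaagtCTACCTCatgcaagcaca
Lin28a, chr4:134005179-134005207, minus strand: agcctgttgaaCTACCTCatttttgccga
Trim71, chr9:114512462-114512490, minus strand: ttgcctaagtcCTACCTCagcttaaattt
Zbtb38 holds 2 AGCACTT sites and Tet2 and Lefty1 hold 1 each, and Lin28b, Lin28a and Trim71 hold 4, 2 and 4 CTACCTC sites. All 6 genes were enriched, with log2 fold changes of 2.45, 3.36, 3.58, 3.64, 2.89 and 1.12, where Lefty1 moved to 4.18 and 3.17 and Lin28a to 5.07 and 2.06 without cytoplasm library 1 and library 2. A match of letters is not evidence of binding, and these sites were picked from genes with known values. Hmga2, a further let-7 target with 4 CTACCTC sites, was also examined, and its values are not reported here.

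Motifs of proteins were counted in the same 3′ UTRs. The Pumilio motif TGTANATA was present in 25.2%, with 39.6% of its genes enriched against 17.7% without it, and the AU-rich pentamer ATTTA in 68.2%, with 30.3% against 7.97%. For both, the share was higher with the motif than without it in each bin of 3′ UTR length and of its GC content. Both motifs are themselves rich in A and T, and the median after removal of the trend was 0.05 with TGTANATA and −0.02 without it, and −0.02 with ATTTA and 0.03 without it.

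Ribosome occupancy was available from other cultures of naive ES cells, as polysome-bound and total RNA of control cells that carry a DDX6 degron allele and in which the study removed no DDX6, with 3 libraries each. For the polysome libraries the study pooled the gradient fractions that contained ribosomes. These libraries played no part in the P-body comparison. The median log2 ratio of polysome to total RNA was 0.02 for 3463 enriched genes, 0.04 for 8871 genes with neither call and −0.05 for 2367 depleted genes. In the 3 replicates the median was −0.05, −0.03 and 0.11 for enriched and −0.01, −0.01 and −0.15 for depleted genes, so the order of the classes differed between replicates. Without the third replicate the median of enriched genes was −0.04. Across 14701 genes the correlation of P-body enrichment with occupancy was 0.03, and that of occupancy with length was −0.39. The study reported a strong negative correlation of enrichment with translation efficiency in naive ES cells. It came from published ribosome profiling set over RNA, a different measure from the ratio used here.

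**Figure D5:**
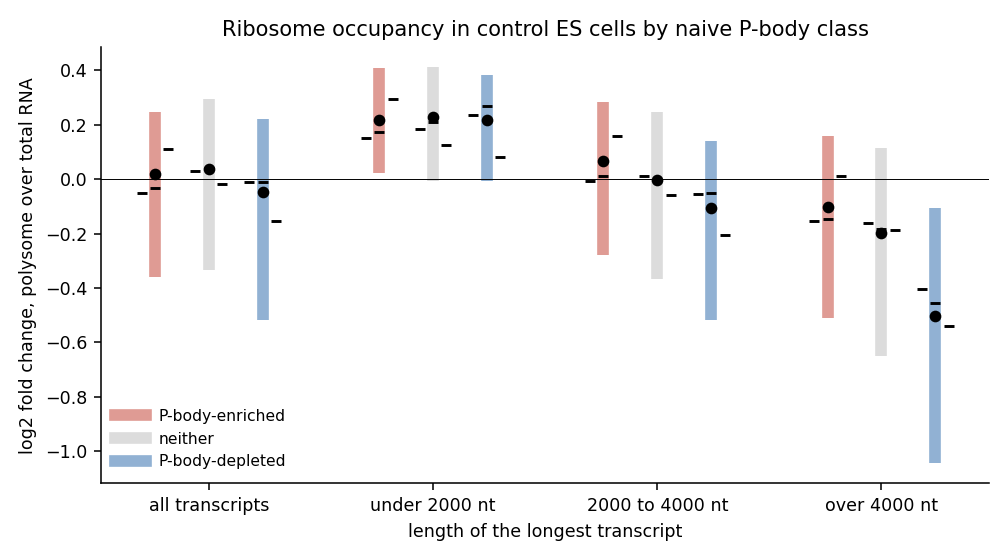
Log2 ratio of polysome-bound to total RNA in control naive ES cells (vertical axis) for genes enriched (red), depleted (blue) or neither (grey) in naive P-bodies, for all transcripts and in bins of transcript length. Dots are medians, bars run from the lower to the upper quartile and short dashes are the medians of the 3 replicates. Under 2000 nucleotides the medians of the classes are alike, and above 4000 nucleotides the median of depleted genes (−0.50) lies below that of enriched genes (−0.10).

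Within bins of length the order of the classes became clearer with length. Under 2000 nucleotides the medians were 0.22, 0.23 and 0.22 for enriched, neither and depleted genes, and the replicate medians overlapped. Between 2000 and 4000 nucleotides they were 0.07 for enriched and −0.11 for depleted genes, with replicate medians of −0.01, 0.01 and 0.16 for enriched and −0.05, −0.05 and −0.20 for depleted genes. Over 4000 nucleotides they were −0.10, −0.20 and −0.50, with replicate medians of −0.15, −0.15 and 0.01 for enriched and −0.40, −0.45 and −0.54 for depleted genes, so in both of these bins the replicate medians did not overlap. Single genes varied within a class. Among enriched genes the log2 ratio was 0.22 ± 0.17 for Lin28b, 0.21 ± 0.08 for Tet2 and −0.74 ± 0.09 for Kif20b, and among depleted genes −2.29 ± 0.07 for Aars, −1.85 ± 0.16 for Itga3 and 0.54 ± 0.08 for Cox8a. The ratio gives the share of a transcript found in the ribosome-containing fractions relative to other transcripts and not its number of ribosomes.

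Naive enrichment was compared with that of primed ES cells, the later state of pluripotency, in a test of the difference between the 2 states over 8 libraries. Of 17199 genes 4349 (25.3%) differed, 2389 (13.9%) with higher enrichment in naive and 1960 (11.4%) with higher enrichment in primed cells. The split depended on the scaling, and with DESeq2's size factors in place of TMM the counts were 2671 and 1589. The primed cytoplasm libraries were the shallowest, with 6769731 and 8019434 reads. The zinc finger genes had 132 members with higher enrichment in naive cells and 16 with the reverse, and the median of their log2 fold change in primed cells was 0.98. Ribosomal protein genes had 37 members and respiratory chain genes 43 members that were higher in primed cells, and none of either list was higher in naive cells.

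Several of the genes described above differed between the states. Values of both states below are log2 fold changes from the fit of 8 libraries, so naive values differ from those of 4 libraries above. Genes picked for large naive fold changes are by that choice more likely to show a difference of the same sign. Dnmt3a, which methylates DNA as cells leave the naive state, had 1.26 in naive and −1.48 in primed cells, difference 2.74 ± 0.30, adjusted p = 0.000519, with primed levels of 128 and 130 against 345 and 374 CPM. Slc27a2 had 1.74 in naive and −1.26 in primed cells, difference 3.0 ± 0.15, adjusted p = 6.92e-05. Lefty1 had 3.45 in naive and −0.02 in primed cells, difference 3.47 ± 0.31, adjusted p = 0.000239, with primed levels of 1748 and 1794 against 1815 and 1773 CPM, and Lin28b had 3.51 in naive and 0.43 in primed cells, difference 3.08 ± 0.16, adjusted p = 6.92e-05. Malat1 had 1.41 in naive and −0.60 in primed cells, difference 2.01 ± 0.26, adjusted p = 0.00104. Aqp3 and Ccnd3 were depleted in naive cells, and their difference went the other way, with Aqp3 at −2.26 in naive and 0.53 in primed cells, difference −2.79 ± 0.54, adjusted p = 0.00583, at low primed levels of 1.88 and 2.94 against 1.61 and 1.71 CPM, and Ccnd3 at −0.91 in naive and 0.43 in primed cells, difference −1.34 ± 0.11, adjusted p = 0.000185. Nanog had −0.74 in naive and 0.19 in primed cells, difference −0.94 ± 0.11, adjusted p = 0.000666, and Zfp42 had −0.05 in naive and 0.74 in primed cells, difference −0.79 ± 0.13, adjusted p = 0.00259, with primed levels of 73.2 and 76.2 against 43.8 and 45.5 CPM. Tet2 was enriched in both states and its difference did not pass the test (2.32 in naive and 1.85 in primed cells, difference 0.47 ± 0.30, adjusted p = 0.289).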

How the data were processed

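RNA of sorted P-bodies and of cytoplasm from naive ES cells was sequenced with SMART-Seq v4 libraries. The authors aligned reads to mm10 with HISAT2 and deposited counts of reads in exons of RefSeq genes from featureCounts. In the naive libraries 18.3% to 20.0% of all values, zeros included, were not whole. How reads that fall on more than 1 gene were counted is not given in the sources used here. These estimated counts were rounded to whole numbers before testing. The polysome and total RNA values deposited by the authors are estimated counts from salmon and were rounded as well. Whether counting used strand is not given in the sources used here. The 10 deposited tables of the authors' own comparisons hold log2 fold changes and p-values and were not used, and a table of Ago2 knockout libraries was not used.

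A gene was tested where its summed reads over the libraries of a fit came to at least 10, with edgeR 4.0.16 in R 4.3.3 (TMM scaling, quasi-likelihood test of P-body against cytoplasm over the 4 naive libraries, Benjamini-Hochberg adjustment over all 15630 genes, threshold 0.05). The study itself used DESeq2, here an alternative (version 1.42.0). Naive and primed enrichment were compared by an interaction term over 8 libraries, and occupancy was the log2 fold change of polysome over total RNA in edgeR over 6 libraries. On simulated counts for 15443 genes, 100% of genes changed 4-fold, 59% of those changed 2-fold and 0.0197% of unchanged genes were called. The simulated libraries all had the same spread, without the wider spread of the cytoplasm pair, and few of their genes were changed. These rates need not hold for the real libraries. GC content and length were taken from the longest GENCODE M21 transcript for 15437 genes matched by symbol (98.8%). The trend on both was removed by local regression (statsmodels 0.14.6). Genes named are the 12 largest changes in each direction, the largest, smallest and most abundant members of each list, genes fixed by name and the 5 leading P-body transcripts. Values of some genes chosen by this rule are not reported here. Members, lists and tests were chosen with earlier results of these data known. Alternatives were DESeq2, its size factors, other filters, a 2-fold minimum, all 20 libraries, a replicate block and leaving out each library. Intervals between libraries cover only these 2 libraries a fraction.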

Additional observations from a re-analysis of the deposited data

Results flagged for a closer look

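The test of the difference in enrichment between naive and primed cells passed for 2389 genes with higher values in naive cells and 1960 genes with higher values in primed cells. Genes described above that passed it are listed with the difference of their log2 fold changes, naive minus primed, from the fit of 8 libraries in edgeR. No cause of these differences was tested, and the primed cytoplasm libraries were less deep than the naive ones.

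Among zinc finger genes the log2 difference was 2.57 for Zfp941, 2.29 for Zfp120, 2.24 for Zfp937, 2.06 for Zfp948, 2.59 for Zfp442, 3.27 for Zfy1, 2.27 for Zik1, −1.22 for Zfp414, 1.77 for Zfp281 and −0.79 for Zfp42. The other genes with the largest naive enrichment had 2.6 for Maml2, 1.43 for Nsrp1, 2.26 for AI987944 and 2.45 for Pdik1l. Of the genes with the most P-body reads, Jade1 had 1.69, Mtf2 had 1.67 and Hsp90aa1 had 0.33. Of the 12 genes with the strongest naive depletion 8 passed this test, and their difference was negative, at −3.0 for Fbln5, −2.35 for Atp2a3, −1.78 for Ptges, −1.82 for Tinagl1, −2.79 for Aqp3, −2.2 for Slit2, −1.84 for Gsto1 and −1.04 for Itga3. The most enriched and most depleted genes were picked by their fold changes in the same naive libraries. That choice by itself favours differences of these signs. In the decay and microRNA machinery it was 1.73 for Ddx6, 0.51 for Lsm14a, 1.19 for Xrn1, 2.23 for Cnot6, −0.51 for Cnot3, 1.28 for Upf3b, 1.1 for Ago2, 1.64 for Tnrc6a, 3.08 for Lin28b and 2.64 for Lin28a. RNA-binding and splicing proteins had 1.58 for Pum2, 0.87 for Cbll1, 0.61 for Ythdf2 and 0.53 for Srsf3. Chromatin and Mediator genes had 1.7 for Chd2, 1.81 for Kmt2e, 1.55 for Zbtb38, 2.74 for Dnmt3a, −0.64 for Trim28, 0.95 for Cdk19 and −0.66 for Med25. Genes of division, replication and repair had 2.7 for Kif20b, 1.11 for Cenpf, 1.95 for Ccne2, −1.34 for Ccnd3, 0.92 for Rfc1, 1.46 for Rif1, −0.64 for Rpa3, −0.77 for Mad2l2 and 1.74 for Usp53. Translation factors and ribosomal proteins had 1.65 for Eif2ak2, 0.81 for Eif1a, −0.51 for Eef1a1 and −0.42 for Rpl4. Metabolic and proteasome genes and ferritin had 0.42 for Ldhb, 0.56 for Dld, 1.31 for Hsd17b7, −1.03 for Cox8a, −0.71 for Psmd8 and −0.70 for Ftl1. Genes of the secretory pathway, matrix and transport had 1.09 for Sec62, 0.55 for Uggt1, 0.65 for Lamc1 and 3.0 for Slc27a2. Signalling genes and Nanog had 0.77 for Nras, 1.87 for Axin2, 3.47 for Lefty1 and −0.94 for Nanog. The nuclear-retained RNAs had 2.01 for Malat1 and −1.12 for Neat1.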

How the results depend on the processing

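The direction and the side of the threshold of the counts held under DESeq2 (3258 enriched and 2181 depleted), DESeq2's size factors (3533 and 2409), edgeR's own filter on low counts (3519 and 2597), no filter (3480 and 2396) and a fit with all 20 libraries of the table (3871 and 2907), all within 1.5 times of the counts given above. Asking for at least a 2-fold difference as well left 3391 genes (2435 enriched, 15.6%, and 956 depleted, 6.12%). With single libraries left out the number called lay between 2056 and 10018, with 1785 to 5171 enriched and 271 to 4847 depleted. The low ends came without a P-body library and the high ends without a cytoplasm library, since the spread then rests on the pair that remains. Between naive and primed cells 2293 to 7089 genes differed with single libraries left out, 1452 to 3594 with higher values in naive and 677 to 3495 with higher values in primed cells. With all 8 libraries, 2461 genes were higher in naive and 1413 in primed cells by DESeq2, and 2671 and 1589 with its size factors. They numbered 2857 and 1525 with edgeR's own filter and 2836 and 1467 with no filter. The 2 libraries of a fraction share only a number with those of the other fraction. Deviations of same-numbered libraries from their group means correlated at −0.06 across 9496 genes, and with the replicate number as a block 3402 genes were enriched and 2337 depleted, and 2093 and 1562 genes differed between the states in each direction.

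Of the 60 enriched and 43 depleted genes named above, 58 and 43 were called by DESeq2, 59 and 43 with the replicate block, 48 and 19 without P-body library 1 and 51 and 16 without P-body library 2, and no called gene changed direction. In several smaller lists at least 1 of these fits moved a count by more than 1.5 times. Depleted members by DESeq2 and with the replicate block numbered 5 and 4 against 9 for the proteasome, 2 and 2 against 4 for nonsense-mediated decay and 4 and 5 against 7 for Mediator, and enriched small nucleolar RNA host genes numbered 2 and 2 against 5. Zfp42, which was not called, had a log2 fold change of −0.00531 without cytoplasm library 1 and 0.20 without library 2. Removing a trend on GC content and length turned the median of the splicing factors to −0.34, of glycolysis genes to 0.26, of cytosolic chaperones to −0.13 and of small nucleolar RNA host genes to −0.36. Leaving out cytoplasm library 2 turned that of Wnt genes to −0.05, and Mediator and replication genes had medians near 0 that changed sign. Tests at low levels were limited by depth, with few calls under 1 CPM, and p-values with 2 libraries a fraction rest on the spread shared across genes.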

Other observations

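Classes of RNA other than protein-coding mRNA were also present. Of 223 long intergenic non-coding RNAs 50 were enriched and 7 depleted, with a median log2 fold change of 0.34, and of 251 genes annotated as antisense 36 were enriched and 9 depleted, with a median of 0.09, where the strand used in counting is not given in the sources used here. None of 33 small nucleolar RNA genes passed the test in edgeR. Protein-coding genes, 14442 in number, had 3332 enriched and 2348 depleted members and a median of −0.07.

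The share of enriched genes also varied between chromosomes. It was 39.3% of 694 genes on chromosome 3, where 4.03% were depleted and the median log2 fold change was 0.51, and 33.1% of 565 genes on the X chromosome, with a median of 0.44. It was 11.7% of 819 genes on chromosome 8 and 15.7% of 1239 genes on chromosome 7, with medians of −0.34 and −0.32. The median GC content at the third codon position was 56.6% and 51.7% on chromosomes 3 and X and 64.4% and 64.6% on chromosomes 8 and 7. These are counts over genes of the same 4 libraries, with no test between chromosomes.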
